A study of Caenorhabditis elegans with 9 samples.

Results

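The comparison of xpa-1 with wild type N2 rested on 4 of the 9 arrays in the series, the 2 labelled xpa-1 and the 2 labelled N2. It covered all 22548 probe sets that are not controls, described as genes and gene families. XPA is the damage-verification protein of nucleotide excision repair, the pathway that cuts out bulky lesions such as those made by ultraviolet light. It joins the lesion after recognition by XPC or by a stalled RNA polymerase, and holds the opened DNA with TFIIH while XPF-ERCC1 and XPG cut the damaged strand. In Caenorhabditis elegans this pathway guards both the germ line, where damage is sought across the whole genome, and the body, where it is sought in transcribed genes.

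The xpa-1 arrays held RNA of xpa-1(ok698) cultures and the N2 arrays RNA of the Bristol wild type. The series also held 3 arrays of nth-1(ok724), which lacks a DNA glycosylase of base excision repair, and 2 of nth-1;xpa-1, which carries both alleles. All strains were backcrossed, grown as mixed-stage populations at the same temperature on HT115(DE3) bacteria until the plates were cleared, and hybridized to Affymetrix C. elegans Genome Arrays. The worms were of mixed ages and each mutant was represented by 1 allele, and in whole worms more cells of a type and more RNA per cell cannot be told apart. The stated replicates are separate sets of plates, 3 per strain in the paper's methods, while 2 arrays each of xpa-1 and N2 were available. The p-values measure the spread between arrays of a strain, pooled over all strains in the fit. That spread also holds the gap between the xpa-1 arrays described below, in which technical and biological parts cannot be told apart. Values are log2 expression values, and values of the 2 arrays of a strain are given as replicate 1, then replicate 2. Differences are xpa-1 minus N2 on the log2 scale, with their standard error (SE) and an adjusted p from limma, fitted on all 9 arrays with Benjamini-Hochberg adjustment over the 22548 probe sets and called at 0.05. Folds are ratios of arithmetic means of unlogged values.

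The deleted gene checked which arrays carry ok698. The xpa-1 transcript was at 6.59 and 5.66 in the xpa-1 arrays and at 10.57 and 10.58 in the N2 arrays, a difference of -4.45 (SE 0.30, adjusted p = 0.00019). Both xpa-1 arrays lay far below both N2 arrays, and the nth-1 arrays, with a mean of 10.52, lay beside N2. The nth-1;xpa-1 arrays were at 6.03 and 5.78, so this transcript cannot tell xpa-1 arrays from those of the double mutant. The next gene on chromosome I, mks-6, moved the other way: it was at 10.66 and 10.19 in xpa-1 and at 6.31 and 6.12 in N2, a rise of 4.21 (SE 0.22, adjusted p = 8.9e-05). This gene encodes a protein of the transition zone at the base of cilia. Its mean was 6.14 in nth-1 and 9.41 in nth-1;xpa-1, so it was high in both strains that carry ok698 and low in both that do not. On the other side of xpa-1, crml-1 differed by 0.04 (adjusted p = 0.93) and fecl-1 by -0.17 (adjusted p = 0.56).

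One technical difference ran through the comparison. The hybridization control BioC placed xpa-1 replicate 1 with N2 and the double mutant, at 9.54 to 9.99, and xpa-1 replicate 2 with the nth-1 arrays, at 8.04 to 8.28. The xpa-1 arrays also lay farther apart than the N2 arrays, with a median absolute difference of 0.24 against 0.13, and with 839 against 83 probe sets at least 2-fold apart. Control probes at the 3' end exceeded those at the 5' end, a measure of RNA length, by 1.37 log2 units for actin and 1.84 for Gapdh in xpa-1 replicate 2. In xpa-1 replicate 1 the values were 1.93 and 2.91, and in N2 2.01 and 1.8 for actin and 2.59 and 2.51 for Gapdh. For Gapdh the xpa-1 arrays thus lay on opposite sides of N2, as they did for catalase (4.66 and 4.43 against 4.62 and 4.49). For ubiquitin both xpa-1 arrays, at 0.83 and 0.69, lay below both N2 arrays, at 1.18 and 0.96. A fit with the BioC batch as a block rests on xpa-1 replicate 1 for this comparison and is given beside results as the value with the batch as a block.

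In xpa-1, 878 probe sets rose and 1499 fell, which is 3.89% and 6.65% of those tested. At the study's 1.8-fold threshold, without a test, 1324 were higher (5.87%) and 1472 lower (6.53%), and 66 and 171 were at least 4-fold higher and lower. All 2377 called probe sets had both xpa-1 arrays beyond both N2 arrays, which also held for 14248 of the 22548 probe sets in all. Counted by gene, with the brightest probe set of each of 17118 genes, 3.36% rose and 7.52% fell, and the median difference of all genes was -0.07. Falls exceeded rises in the deposited scale, where rises were 36.9% of the calls, and with quantile normalization (44.1%), while with each array centred on its median rises were 52.9%. The counts moved most downward without an N2 array: 72 rose and 173 fell without N2 replicate 1, and 82 and 200 without N2 replicate 2. Without nth-1 replicate 3, 2878 rose and 3565 fell, although this changes only the pooled spread and no difference of xpa-1 from N2. A test without an N2 or xpa-1 array leaves 1 array in that group. Calls described below as ended there can thus end with little change in the difference. The batch as a block left 227 that rose and 530 that fell. The plot of differences by level shows the calls spread over the range of levels.

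**Figure D1:**
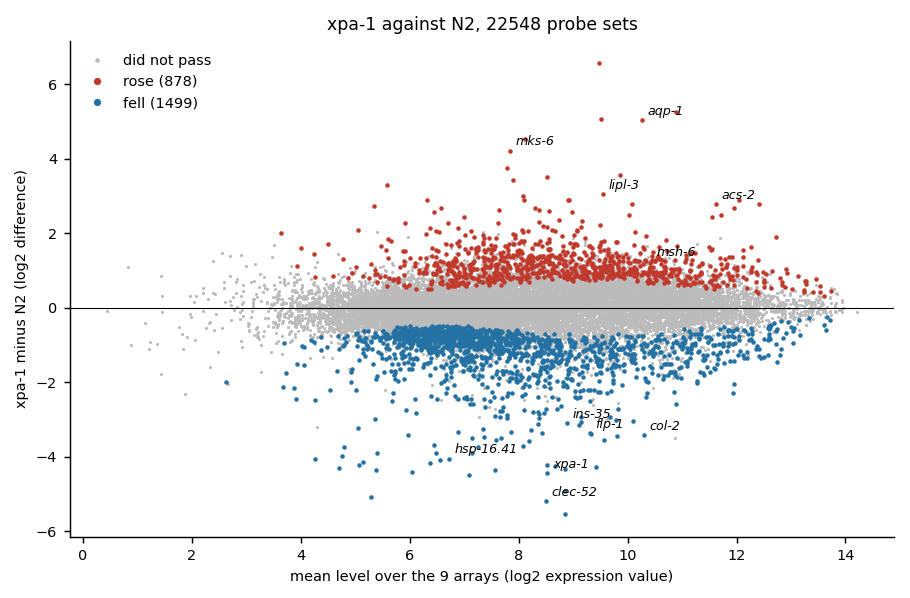
Each point is 1 of 22548 probe sets, with its mean log2 expression value over the 9 arrays on the x axis and the log2 difference of xpa-1 from N2 on the y axis. The 878 that rose are red and the 1499 that fell blue, the rest grey, and among the labelled genes aqp-1 lies at 5.03 and clec-52 at -5.19.

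The 15 largest rises included channels, transporters, digestive enzymes and genes of no stated function. aqp-1, an intestinal water and glycerol channel, was at 11.86 and 12.89 in xpa-1 and at 7.41 and 7.28 in N2, a rise of 5.03 (SE 0.32, adjusted p = 0.00018), 34.7-fold. T22F3.11 was at 10.87 and 12.51 against 6.6 and 6.66, a rise of 5.06 (SE 0.48, adjusted p = 0.001), and a second probe set of it rose by 6.56. Both genes were higher in xpa-1 replicate 2 than in replicate 1, and in both arrays well above N2. C23G10.11 rose by 4.53 and R193.2 by 3.75, although a second, dimmer probe set of R193.2 differed by only 0.19 (adjusted p = 0.80). The bestrophin chloride channel gene best-1 was at 11.11 and 10.96 in xpa-1 and at 7.4 and 7.55 in N2, a rise of 3.56 (SE 0.43, adjusted p = 0.0027). The cathepsin B-like protease gene cpr-8 rose by 3.52, the lysosomal lipase gene lipl-3 by 3.04, the scavenger receptor gene scav-5 by 3.0 and the carboxylesterase gene cest-29 by 2.9. The glucuronosyltransferase gene ugt-17 rose by 2.89, the heme-signal gene hrg-7 by 2.88 and C17F4.7 by 2.78. These genes passed whichever of the 9 arrays was left out.

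Among the 15 largest rises the calls of 2 did not hold in every test without 1 array. clec-190, a C-type lectin gene, was at 11.22 and 8.49 in xpa-1 and at 6.4 and 6.47 in N2, a rise of 3.42 (SE 0.75, adjusted p = 0.026) that ended without either N2 array, either nth-1;xpa-1 array or xpa-1 replicate 1. The folate transporter gene folt-2 was at 10.05 and 8.52 against 6.26 and 6.5, a rise of 2.9 (adjusted p = 0.037) that ended without any 1 array of N2, xpa-1 or nth-1;xpa-1. Their highest adjusted p without 1 array was 0.16 and 0.20. In each the lower xpa-1 array lay above both N2 arrays, as the choice of these genes required.

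**Figure D2:**
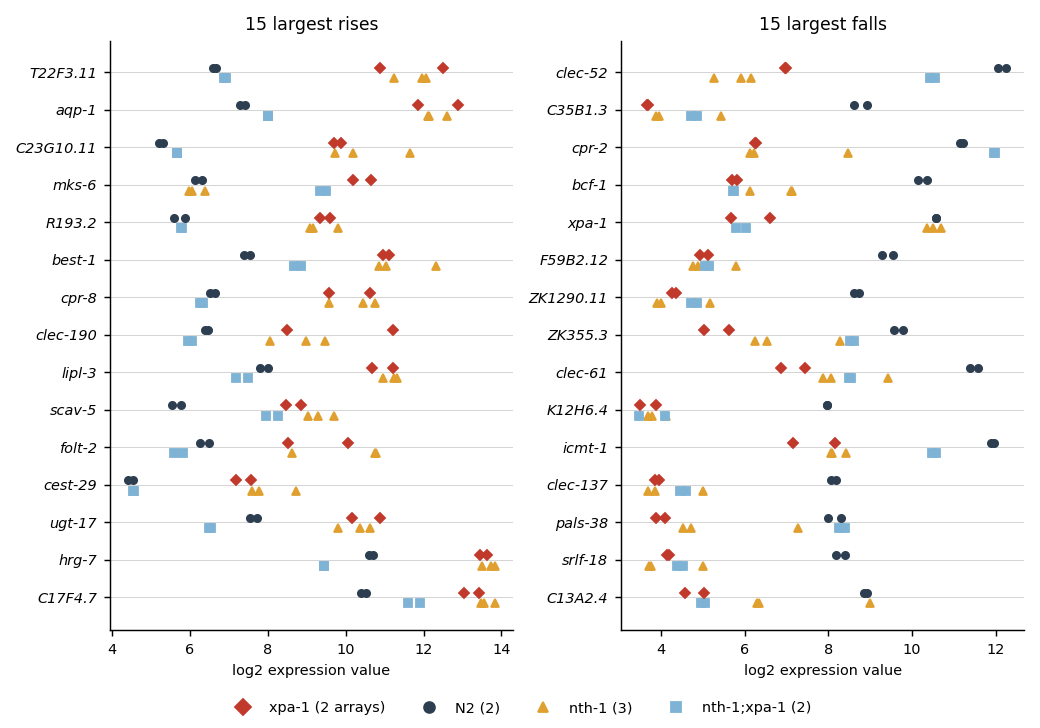
Log2 expression values (x axis) of the 15 genes that rose most and the 15 that fell most in xpa-1 against N2, 1 point per array of each strain. The 30 genes were chosen among calls with no overlap of arrays, so both xpa-1 diamonds lie on the same side of both N2 circles. Log2 differences run from 2.78 to 5.06 for rises and from -4.1 to -5.19 for falls.

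The 15 largest falls included lectin and protease genes and genes of no stated function. clec-52 was at 6.95 and 6.98 in xpa-1 and at 12.06 and 12.25 in N2, a difference of -5.19 (SE 0.28, adjusted p = 9e-05). C35B1.3 was at 3.69 and 3.66 against 8.91 and 8.62, a difference of -5.09 (SE 0.45, adjusted p = 0.0007). The cathepsin B-like gene cpr-2 was at 6.25 and 6.27 against 11.15 and 11.22, a difference of -4.92 (SE 0.66, adjusted p = 0.0042). In these 3 genes the xpa-1 arrays were nearly identical and far under N2. Of the others bcf-1, named as a bacterial colonization factor, differed by -4.5, F59B2.12 by -4.4, ZK1290.11 by -4.37, ZK355.3 by -4.36, K12H6.4 by -4.3 and srlf-18 by -4.14. The lectin genes clec-61 and clec-137 differed by -4.32 and -4.22, and icmt-1, named for a methyltransferase of isoprenylated proteins, by -4.28. All of these passed whichever array was left out. pals-38, of a family induced by intracellular pathogens, differed by -4.16 (adjusted p = 0.013) and C13A2.4 by -4.1 (adjusted p = 0.014), and both calls ended without any 1 of the N2 or xpa-1 arrays (highest adjusted p 0.10).

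The levels in the other strains divided these genes into groups. Of the 15 genes that fell most, bcf-1, F59B2.12, ZK1290.11, K12H6.4, srlf-18, clec-137 and C35B1.3 were low in every mutant: their means differed from N2 by -3.6 to -4.51 in the double mutant and by -3.46 to -4.35 in nth-1. clec-61 differed by -2.97 in the double mutant and by -3.03 in nth-1, and C13A2.4 by -3.88 and -1.67. cpr-2 and pals-38 were high in the double mutant, 0.78 and 0.18 above N2, and clec-52, icmt-1 and ZK355.3 lay between, at -1.68, -1.39 and -1.12. Among the rises, only mks-6, with -0.08 in nth-1, was not raised there too, and the double mutant differed from N2 by 1.3 or less in either direction in all but mks-6 and scav-5 (3.2 and 2.44). The comparisons share the N2 arrays.

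The genes hrg-1, hrg-3, hrg-4 and hrg-7 rose. Heme is obtained from food in C. elegans, which does not make it, and the hrg genes carry it. hrg-7, which encodes a protease-like signal secreted from the intestine when heme is scarce, was at 13.44 and 13.62 in xpa-1 and at 10.61 and 10.69 in N2, a rise of 2.88 (SE 0.14, adjusted p = 5e-05). The heme importer genes hrg-1, in the lysosome, and hrg-4, at the cell surface, rose by 2.78 (SE 0.31, adjusted p = 0.002) and 2.56 (SE 0.21, adjusted p = 0.00057), and hrg-3, which encodes a heme carrier from intestine to embryos, rose by 2.74 (SE 0.32, adjusted p = 0.0025). In the 4 genes both xpa-1 arrays lay well above N2, and the calls held whichever array was left out. The ferritin gene ftn-1, which stores iron, went the other way, at 9.78 and 9.93 against 11.62 and 11.69, a difference of -1.8 (SE 0.34, adjusted p = 0.015) that ended without any 1 N2 or xpa-1 array. Of 18 heme and iron genes 6 rose and 1 fell, 33.3% rising against 3.36% of all genes, with 4 to 7 rises over the tests without 1 array and 4 with the batch as a block. The exporter gene mrp-5, which sends heme out of the intestine, rose by 0.92 and the iron exporter gene fpn-1.2 by 0.93, calls that ended without either N2 array (highest adjusted p 0.21), whereas ftn-2 differed by -0.53 (adjusted p = 0.15).

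Channels and exporters included rises and falls. In shares, 30% of the aquaporins rose and 10% fell. For ABC transporters these were 12.2 and 4.08%, against 3.36 and 7.52% of all genes. Of 10 aquaporins 3 rose and 1 fell: aqp-1, aqp-7 by 1.3 (SE 0.21, adjusted p = 0.0085) and aqp-4 by 0.98 (adjusted p = 0.02) rose, and aqp-8, at 8.73 and 8.88 against 10.31 and 10.39, differed by -1.54 (SE 0.19, adjusted p = 0.0033). Only aqp-1 passed whichever array was left out, and the other 3 calls ended without N2 replicate 2, with adjusted p up to 0.17. Of 49 ABC transporters, which export lipids and foreign compounds, 6 rose and 2 fell, and the rises were 0 to 14 over the tests without 1 array and 1 with the batch as a block. The P-glycoprotein gene pgp-9 was at 9.78 and 9.49 against 7.52 and 7.63 (2.06, SE 0.53, adjusted p = 0.043), and pgp-1, mrp-7 and haf-1 rose by 1.74, 1.69 and 1.54. All 4 ended without either N2 array, with adjusted p up to 0.22.

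Genes of fat use passed in both directions. lipl-3 was at 10.68 and 11.22 in xpa-1 and at 7.81 and 8.01 in N2 (3.04, SE 0.25, adjusted p = 0.00057). acs-2, an acyl-CoA synthetase gene induced by fasting, was at 12.55 and 12.84 against 9.8 and 10.05 (2.77, SE 0.19, adjusted p = 0.00019), and its second probe set rose by 5.24. Both held in every test without 1 array, and both xpa-1 arrays were far above N2. A relative, lipl-2, was at 10.76 and 11.14 against 12.59 and 12.79, a difference of -1.74 (SE 0.18, adjusted p = 0.0014) that also held, and fil-1, a lipase gene named for induction by fasting, differed by -2.1 (adjusted p = 0.016). Of 28 lipases 1 rose and 2 fell, which is 3.57 and 7.14% against 3.36 and 7.52% of all genes. Of 70 genes of fatty acid activation and oxidation 6 rose (8.57%) and 4 fell (5.71%): the hydroxyacyl-CoA dehydrogenase gene hacd-1 rose by 1.54 and acs-19 by 1.58, whereas the carnitine palmitoyltransferase gene cpt-4, at 6.93 and 8.12 against 9.18 and 9.29, differed by -1.71 (adjusted p = 0.016), and by -0.91 (adjusted p = 0.061) in its second probe set. fil-1, hacd-1, acs-19 and cpt-4 ended without either N2 array (highest adjusted p 0.12).

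In fat synthesis a larger share rose than among genes in all. Of 21 genes of fatty acid synthesis 7 rose and 1 fell, 33.3% rising against 3.36% of all genes. The acetyl-CoA carboxylase gene pod-2, the first step, was at 8.93 and 10.48 in xpa-1 and at 7.56 and 8.0 in N2 (1.92, SE 0.50, adjusted p = 0.043), with the xpa-1 arrays far apart. The elongase gene elo-2, for palmitate, rose by 1.11 (SE 0.16, adjusted p = 0.0056) and let-767, a ketoacyl reductase gene, by 0.95 (SE 0.13, adjusted p = 0.0045), while the elongase gene elo-4 differed by -2.3 (adjusted p = 0.024). The delta-9 desaturase genes fat-5, fat-6 and fat-7 differed by -0.12, -0.21 and -0.24, with adjusted p of 0.57 or more. The 4 calls ended without either N2 array (highest adjusted p 0.24), and the count of rises was 0 to 9 over the tests without 1 array and 2 with the batch as a block.

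In carbon metabolism 9 of 49 genes rose, 18.4% against 3.36% of all genes, and 1 fell. icl-1, the glyoxylate cycle enzyme that lets worms build sugar from fat, was at 12.84 and 13.44 in xpa-1 and at 11.47 and 11.55 in N2 (1.63, SE 0.19, adjusted p = 0.0025), and its other probe sets rose by 2.42 and 2.48. The pyruvate carboxylase gene pyc-1 was at 10.43 and 11.46 against 9.19 and 9.32 (1.69, SE 0.32, adjusted p = 0.016). Aconitase (aco-1) and citrate synthase (cts-1), entry enzymes of the citrate cycle, each rose by 1.27. All xpa-1 arrays were above N2 in the 4 genes, as in every probe set called as a rise. Only icl-1 held in every test without 1 array, the other 3 calls ended without either N2 array (highest adjusted p 0.13), and the count of rises was 1 to 20 over those tests and 3 with the batch as a block. The list's median was 0.38, with 0.26 in xpa-1 replicate 1 and 0.47 in replicate 2.

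Of 49 respiratory chain genes 4 rose (8.16%) and 3 fell (6.12%), and none did with the batch as a block: the ATP synthase genes atp-1 and atp-2 rose by 1.01 and 0.92, the heme A synthesis gene cox-15 by 1.26 and ucr-1, of complex III, by 1.03. In the breakdown of propionate, 3 of 14 genes rose, 21.4% against 3.36% of all genes. These were the carboxylase subunit gene pccb-1 (1.29) and, in the shunt used without vitamin B12, hphd-1 (1.26) and acdh-1 (1.31). A second probe set of pccb-1, of low level, differed by -0.10 (adjusted p = 0.74). The median of the propionate list was -0.11 in xpa-1 replicate 1 and 0.52 in replicate 2. The calls of these 7 genes ended without either N2 array, with adjusted p up to 0.24.

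Detoxification genes passed in both directions, where 3.36% of all genes rose and 7.52% fell. Among short-chain dehydrogenases these shares were 10 and 3.33%. Of 64 UDP-glucuronosyltransferases, which add sugar to small molecules, 8 rose (12.5%) and 5 fell (7.81%). ugt-17 was at 10.16 and 10.89 in xpa-1 and at 7.73 and 7.54 in N2 (2.89, SE 0.32, adjusted p = 0.0021), ugt-13 rose by 2.62 (SE 0.31, adjusted p = 0.0025) and ugt-62 by 1.96 (SE 0.19, adjusted p = 0.0012), and these 3 held whichever array was left out. ugt-31 rose by 1.98 (adjusted p = 0.0056), a call that ended without either N2 array (highest adjusted p 0.07). Of 74 cytochromes P450, which oxidize lipids and foreign compounds, 5 rose (6.76%) and 6 fell (8.11%), with 2 and 3 left by the batch as a block. cyp-14A3 was at 8.66 and 7.61 against 6.07 and 5.89 (2.15, SE 0.32, adjusted p = 0.0062), and cyp-33A1 and cyp-13A1 rose by 2.04 and 1.84, but all 3 ended without either N2 array. cyp-35B1, a gene regulated by insulin signaling, was at 8.28 and 8.26 against 10.3 and 10.44 (-2.1, SE 0.21, adjusted p = 0.0011) and held in every test. Of 30 short-chain dehydrogenases 3 rose (dhs-23 by 2.06, dhs-2 by 0.98 and dhs-17 by 0.66) and dhs-31 differed by -0.99, and these 4 ended without either N2 array (highest adjusted p 0.20).

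Glutathione enzymes included 2 rises and 6 falls among 52 genes, 3.85 and 11.5%. The omega-class transferase gene gsto-1 was at 11.88 and 12.24 in xpa-1 and at 10.49 and 10.69 in N2 (1.47, SE 0.17, adjusted p = 0.0026). gst-4, a target of the oxidative stress factor SKN-1, was at 7.97 and 7.95 against 6.9 and 7.02 (1.0, SE 0.18, adjusted p = 0.013). The relatives gst-20, gst-42, a maleylacetoacetate isomerase gene, and gst-3 differed by -1.98, -1.94 and -1.86, with adjusted p of 0.003 or less. gsto-1 and the 3 falls held whichever array was left out, while gst-4 ended without either N2 array or xpa-1 replicate 2 (highest adjusted p 0.12). gst-10 was at 10.18 and 9.29 against 11 and 11.03, a difference of -1.28 that did not pass (adjusted p = 0.072).

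Enzymes that act on superoxide and peroxide fell or did not pass. Of 25 measured, 4 fell, 16% against 7.52% of all genes, and none with the batch as a block: the glutathione peroxidase genes gpx-6 (-1.72, SE 0.32, adjusted p = 0.015), gpx-3 (-1.41) and gpx-2 (-0.9), and the mitochondrial thioredoxin gene trx-2 (-0.76). Each ended without any 1 N2 or xpa-1 array (highest adjusted p 0.16). The superoxide dismutase gene sod-3 was at 7.77 and 7.69 in xpa-1 and at 8.18 and 7.99 in N2 (-0.36, SE 0.55, adjusted p = 0.72), sod-1 differed by 0.07 (adjusted p = 0.83) and the catalase gene ctl-2 by -0.01 (adjusted p = 0.99). In the metal response, hmt-1, a transporter gene for cadmium tolerance, rose by 1.16 (adjusted p = 0.012) and the metallothionein gene mtl-1 differed by -1.27 (adjusted p = 0.045). These were the only calls among 28 genes, 3.57% in each direction against 3.36 and 7.52% of all genes. Both ended without either N2 array.

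Of 12 small heat shock protein genes 2 fell, 16.7% against 7.52% of all genes, and 10 did not pass, with 1 to 4 falls over the tests without 1 array. hsp-16.41 was at 5.25 and 4.39 in xpa-1 and at 8.83 and 8.93 in N2 (-4.06, SE 0.54, adjusted p = 0.0043), and held whichever array was left out. hsp-16.2 was at 6.17 and 5.55 against 9.48 and 9.35 (-3.56, SE 0.53, adjusted p = 0.0062), and ended without either N2 array or xpa-1 replicate 2 (highest adjusted p 0.068). Probe sets shared by pairs of near-identical genes, chosen after their values were seen, went the same way: hsp-16.48 with hsp-16.49 by -4.22 (adjusted p = 0.021) and hsp-16.1 with hsp-16.11 by -2.86 (adjusted p = 0.024). The 2 calls among the 12 small heat shock genes measured alone are thus from the strongly inducible hsp-16 group, and hsp-12.6, which is not induced by heat, differed by -0.37 (adjusted p = 0.49). Signal of such genes on an array can come from their near copies. Of 30 larger chaperones 2 rose (6.67%) and 1 fell (3.33%), against 3.36 and 7.52% of all genes. The gene cct-2, for a subunit of the chaperonin that folds tubulin and actin, rose by 1.06. stip-1, the link between the large heat shock chaperones, rose by 0.88 (0.72, adjusted p = 0.11, in its second probe set). pfd-5, a prefoldin subunit, differed by -0.51. The mitochondrial chaperone genes hsp-6 and hsp-60 differed by 0.80 (adjusted p = 0.064) and 0.66 (adjusted p = 0.054). Of 33 genes of the endoplasmic reticulum stress response only hsp-4, the inducible BiP gene, passed, with a rise of 0.87 (SE 0.19, adjusted p = 0.025). That is 3.03% of the list, against 3.36% of all genes. Of 58 abu and pqn genes, which encode prion-like repeat proteins, 4 fell, 6.9% against 7.52% of all genes. They were pqn-24 at -0.92, pqn-84 at -0.91, pqn-10 at -0.80 and pqn-75 at -0.70. The calls of cct-2, stip-1, pfd-5, hsp-4 and the pqn genes ended without either N2 array, with adjusted p up to 0.27.

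Immune effectors fell in larger shares than genes in all. Of 220 C-type lectins, secreted sugar-binding proteins, 5 rose and 41 fell, 18.6% falling against 7.52% of all genes. Beside clec-52, clec-61 and clec-137, clec-219 was at 5.81 and 5.09 in xpa-1 and at 9.11 and 9.20 in N2 (-3.70, SE 0.25, adjusted p = 0.00019) and held whichever array was left out. The count of lectins that fell was 13 to 70 over the tests without 1 array and 25 with the batch as a block. The medians of the lectins were alike in both xpa-1 arrays, -0.26 and -0.28.

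Of 74 lysozymes and antimicrobial peptides 2 rose and 21 fell, 28.4% against 7.52% of all genes. The defensin-like gene abf-2 was at 8.0 and 7.32 in xpa-1 and at 11.04 and 11.03 in N2 (-3.38, SE 0.79, adjusted p = 0.031), and cnc-7, a caenacin gene, was at 8.55 and 7.25 against 10.93 and 11 (-3.06, SE 0.45, adjusted p = 0.0058). The lysozyme gene lys-7, lowered when insulin signaling is active, was at 10.86 and 11.04 against 12.63 and 12.75 (-1.74, SE 0.34, adjusted p = 0.017). In all 3 the xpa-1 arrays were well under N2. ilys-2, an invertebrate-type lysozyme gene, differed by -2.41 and the saposin-like gene spp-18 by -2.06. The epidermal antimicrobial peptide genes nlp-28 and nlp-29, induced by fungi and wounds, differed by -1.72 and -1.31, whereas the thaumatin-like gene thn-1 rose by 2.05 (adjusted p = 0.031) and spp-23 by 1.28 (adjusted p = 0.029). Each of these 9 calls ended without either N2 array (highest adjusted p 0.18), and over the tests without 1 array 1 to 34 members fell, and 12 with the batch as a block.

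Of 153 genes of pathogen response families 3 rose and 33 fell, 21.6% against 7.52% of all genes, with a median of -0.50. The falls were 4 to 78 over the tests without 1 array and 10 with the batch as a block. scl-8, of the secreted SCP family, was at 5.69 and 5.43 in xpa-1 and at 9.6 and 9.32 in N2 (-3.9, SE 0.38, adjusted p = 0.001) and held whichever array was left out. pals-33 differed by -3.74 (SE 0.91, adjusted p = 0.036) and pals-6 by -3.35 (SE 0.62, adjusted p = 0.014), and both ended without any 1 N2 or xpa-1 array (highest adjusted p 0.18). Some falls were side by side on a chromosome: ins-35, K02E2.6, K02E2.7, F53H2.1 and cnc-7 are consecutive measured genes on chromosome V and all fell, with differences from -1.06 to -3.1.

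Digestive proteases passed in both directions. Of 28 cathepsin-like genes 3 rose (10.7%) and 4 fell (14.3%). cpr-8 was at 9.58 and 10.62 in xpa-1 and at 6.64 and 6.52 in N2, and the aspartyl protease gene asp-11 rose by 1.96 (SE 0.47, adjusted p = 0.033). Its relative asp-14 was at 10.96 and 11.16 against 12.34 and 12.45 (-1.34, SE 0.16, adjusted p = 0.0027) and held in every test, as cpr-2 did, whereas asp-11 ended without any 1 array of N2, xpa-1 or nth-1;xpa-1 (highest adjusted p 0.18). Of 36 astacins, secreted zinc proteases, 5 fell (13.9%), and 2 with the batch as a block. nas-24 was at 6.19 and 6.39 against 9.53 and 9.55 (-3.25, SE 0.19, adjusted p = 0.00012) and held in every test. nas-9, nas-5 and nas-19 differed by -1.52, -1.42 and -0.92 and ended without either N2 array, with adjusted p up to 0.25.

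Insulin-like ligands were counted apart from their receptor and kinases. Of 24 insulin-like peptide genes, ligands of the DAF-2 receptor, 5 fell, 20.8% against 7.52% of all genes, and 19 did not pass, and the median was -0.45. Over the tests without 1 array 2 to 10 fell, and 2 with the batch as a block. ins-7, an intestinal agonist of DAF-2, was at 6.72 and 6.42 in xpa-1 and at 9.7 and 9.7 in N2 (-3.13, SE 0.62, adjusted p = 0.018). ins-35 was at 7.42 and 7.29 against 10.45 and 10.46 (-3.1, SE 0.26, adjusted p = 0.00057), and ins-31 differed by -1.82 (SE 0.21, adjusted p = 0.0023). The xpa-1 arrays lay close together in these genes. ins-1, a DAF-2 antagonist in neurons, was at 7.41 and 7.45 against 8.66 and 8.76 (-1.28, SE 0.26, adjusted p = 0.02), and ins-4 differed by -0.98 (adjusted p = 0.043). ins-35 and ins-31 held whichever array was left out, and ins-7, ins-1 and ins-4 ended without any 1 N2 or xpa-1 array (highest adjusted p 0.22). Of the receptor and kinases of the pathway none of 19 genes passed in limma (2 higher and 2 lower at an unadjusted p under 0.05), with daf-2 at 0.22 (adjusted p = 0.45) and the FOXO gene daf-16 at 0.22 (adjusted p = 0.80).

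Of 9 dod genes, named for lying downstream of DAF-16, 2 fell, 22.2% against 7.52% of all genes. They were dod-3 (-1.18, SE 0.15, adjusted p = 0.0036) and dod-6 (-1.76, SE 0.40, adjusted p = 0.029). dod-3 ended without N2 replicate 1 (adjusted p = 0.051) and dod-6 without any 1 array of N2, xpa-1 or nth-1;xpa-1 (up to 0.17). Of 3 dao genes, named for dauer and aging, dao-5, a nucleolar protein gene, was at 11.13 and 11.54 in xpa-1 and at 9.89 and 10.12 in N2 (1.33, SE 0.36, adjusted p = 0.048), a call that ended without either N2 array (highest adjusted p 0.25). dao-3 and dao-4 differed by -0.01 and -0.02 (adjusted p = 0.99 and 0.96). In nutrient sensing 2 of 23 genes rose, let-363, the TOR kinase, by 0.87 (adjusted p = 0.03) and the helicase gene ruvb-1 by 1.28 (adjusted p = 0.017), both ending without either N2 array (highest adjusted p 0.22). The 2 rises are 8.7% of that list, against 3.36% of all genes. A second probe set of let-363 rose by 1.62 (adjusted p = 0.0039). No p38 or JNK kinase gene of 19 passed in limma (1 lower and 0 higher at an unadjusted p under 0.05), with pmk-1 at 0.15 (adjusted p = 0.81).

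In the deposited scale neuropeptide genes had the lowest median of the 63 lists. With quantile normalization the dod genes lay lower (-0.60 against -0.55), and with the batch as a block the peptides were at -0.48 and the major sperm proteins at -1.08. Of 62 genes 10 fell, 16.1% against 7.52% of all genes, and 52 did not pass, and 54 of the 62 differences were negative, with a median of -0.60. flp-1, an FMRFamide-like peptide gene of interneurons, was at 7.98 and 7.12 in xpa-1 and at 10.94 and 10.9 in N2 (-3.37, SE 0.65, adjusted p = 0.016), and its other probe sets differed by -1.97 and -3.36. flp-8 was at 7.68 and 6.55 against 9.67 and 9.83 (-2.64, SE 0.58, adjusted p = 0.025), and flp-19 and nlp-49 differed by -2.38 and -2.28. Second probe sets of flp-8 and flp-19, dimmer than the first, differed by -0.10 and -0.15 and did not pass. The falls were deeper in xpa-1 replicate 2, with medians of -0.48 and -0.83 in replicates 1 and 2. All 4 calls ended without either N2 array or xpa-1 replicate 2 (highest adjusted p 0.15), and 2 of the 62 genes fell with the batch as a block.

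Among other nerve genes the share that fell was 8.72% or less in each list. Of 35 synaptic genes 1 rose, 2.86% against 3.36% of all genes. It was the glutamate transporter gene eat-4, by 1.08 (SE 0.23, adjusted p = 0.024), although its second probe set differed by 0.24 (adjusted p = 0.47). The mean level of these 35 genes was 8.68 and 8.64 in xpa-1 and 8.45 and 8.48 in N2, and that of the 62 peptide genes 7.76 and 7.48 against 8.45 and 8.38. Of 166 ion channel genes 6 rose (3.61%) and 13 fell (7.83%), with best-1 the largest rise. unc-38, a subunit gene of the muscle acetylcholine receptor, was at 7.69 and 7.46 in xpa-1 and at 9.62 and 9.56 in N2 (-2.02, SE 0.27, adjusted p = 0.0044) and ended without N2 replicate 1 (adjusted p = 0.055). best-21 and the potassium channel gene twk-5 differed by -1.5 and -1.21. Of 1262 chemoreceptor genes 2 rose and 110 fell, 8.72% against 7.52% of all genes, and 66 fell with quantile normalization and 16 with the batch as a block. sru-40 differed by -2.46, sri-8 by -1.6 and srz-19 by -1.46, and srh-2 rose by 2.44. sri-8 and srz-19 held whichever array was left out, while eat-4, best-21, twk-5 and srh-2 ended without either N2 array and sru-40 without N2 replicate 1.

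Few DNA repair genes passed, and of those xpa-1 and gtf-2H5 fell and the others rose. Among nucleotide excision repair genes, xpa-1 included, 5.88% rose and 11.8% fell, against 3.36 and 7.52% of all genes. In nucleotide excision repair itself, of 17 genes, gtf-2H4, a TFIIH subunit gene, was at 9.79 and 9.95 in xpa-1 and at 8.93 and 8.77 in N2 (1.02, SE 0.23, adjusted p = 0.027), and gtf-2H5, the smallest TFIIH subunit, was at 9.05 and 8.69 against 9.95 and 9.78 (-1.0, SE 0.23, adjusted p = 0.029). The recognition gene xpc-1 differed by 0.40 (adjusted p = 0.54), csb-1 by 0.10 (adjusted p = 0.90), and the nuclease genes xpf-1, ercc-1 and xpg-1 by 0.14, -0.12 and 0.23 (adjusted p of 0.47 or more). In base excision repair none of 10 genes passed in limma, with 3 higher at an unadjusted p under 0.05 and a median of 0.49, and the glycosylase gene nth-1 was at 9.69 and 10.37 against 9.63 and 9.32 (0.56, adjusted p = 0.20).

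In mismatch repair, which corrects replication errors, msh-6 was at 11.4 and 11.4 in xpa-1 and at 10.06 and 10.29 in N2 (1.23, SE 0.17, adjusted p = 0.0054), and its partner msh-2 was at 11.07 and 11.11 against 10.08 and 10.34 (0.88, SE 0.21, adjusted p = 0.033). Both partners of the MutS dimer thus rose, while mlh-1, of MutL, differed by 0.52 (adjusted p = 0.11), with a rise of 1.45 (adjusted p = 0.021) in its second probe set, and the nuclease gene exo-1 by 0.33 (adjusted p = 0.41). In homologous recombination and crosslink repair 4 of 26 genes rose, 15.4% against 3.36% of all genes, with 0 to 13 over the tests without 1 array and 2 with the batch as a block. him-6, the Bloom helicase, was at 9.63 and 9.92 against 8.0 and 8.41 (1.57, SE 0.24, adjusted p = 0.0071). xnd-1, which sets crossovers, rose by 1.27, the Fanconi gene fcd-2 by 0.86 and helq-1 by 0.78, whereas the recombinase gene rad-51 differed by 0.48 (adjusted p = 0.12), dna-2 by 0.88 (adjusted p = 0.052) and dog-1 by 0.84 (adjusted p = 0.22). msh-6 and him-6 ended without N2 replicate 1 (adjusted p = 0.078 and 0.091), and msh-2, xnd-1, fcd-2, helq-1 and both TFIIH genes without either N2 array (up to 0.24).

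Of 8 genes of end joining and translesion synthesis none passed in limma (2 higher at an unadjusted p under 0.05). The ligase gene lig-4 differed by 0.52, cku-70 by 0.56, cku-80 by 0.18, rev-1 by 0.48, polh-1 by 0.29, rev-3 by 0.17 and polk-1 by 0.06. For polq-1, the polymerase of alternative end joining, the brightest probe set differed by 0.02 (adjusted p = 0.95), another by 1.3 (adjusted p = 0.0056) and the last by -0.30 (adjusted p = 0.33), so the probe sets disagree. Checkpoint genes gave 1 rise and 1 fall of 20, dpl-1, the partner of E2F, at 1.03 (adjusted p = 0.023) and efl-2 at -0.96 (adjusted p = 0.0079), both ending without either N2 array (highest adjusted p 0.18). In shares, 5% of the checkpoint genes rose and 5% fell, against 3.36 and 7.52% of all genes. The p53 gene cep-1 differed by 0.04 (adjusted p = 0.92), its apoptosis target egl-1 by -0.46 (adjusted p = 0.20), atl-1, the ATR kinase, by 0.24 (adjusted p = 0.52) and hsr-9 by 0.51 (adjusted p = 0.15), although a second probe set of hsr-9 rose by 1.42 (adjusted p = 0.025).

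In lists of dividing cells larger shares rose than among genes in all (3.36%). Of 36 replication genes 4 rose (11.1%): mcm-2, of the replicative helicase, was at 11.12 and 11.65 in xpa-1 and at 9.97 and 10.25 in N2 (1.27, SE 0.29, adjusted p = 0.03), and the polymerase epsilon gene pole-1, the clamp loader gene rfc-1 and the polymerase alpha subunit gene div-1 rose by 1.1, 0.77 and 0.76. Of 31 mitotic kinases and cyclins 4 rose (12.9%). cye-1, cyclin E, was at 7.97 and 8.2 against 6.79 and 6.89 (1.25, SE 0.18, adjusted p = 0.0054), and plk-2, wee-1.3 and ify-1, the securin, rose by 1.45, 1.06 and 0.87, while a second probe set of plk-2 differed by 0.53 (adjusted p = 0.26). Polo kinase plk-1 was at 12.32 and 12.04 against 11.6 and 11.78 (0.49, SE 0.15, adjusted p = 0.07), with 0.98 (adjusted p = 0.02) in its second probe set, and Aurora B, air-2, differed by 0.20 (adjusted p = 0.59). Of 49 genes of kinetochore, spindle and cytokinesis 10 rose (20.4%), among them the kinetochore gene hcp-1 by 1.32, the spindle gene tpxl-1 by 1.06 (its other probe sets differed by 0.9 and -0.03), gip-1, of the gamma-tubulin ring, by 0.98, the condensin gene hcp-6 by 0.92 and the anillin gene ani-2 by 0.60. The calls named here ended without either N2 array, with adjusted p up to 0.27, and the count of rises in the 3 lists fell to 0, 1 and 1 with the batch as a block and was 0 to 15, 0 to 11 and 0 to 24 over the tests without 1 array.

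Among germ line genes the oocyte list had the most rises, and the sperm lists had none. Of 28 meiotic chromosome genes 2 rose, 7.14% against 3.36% of all genes. The gene him-17 rose by 1.23 (adjusted p = 0.014) and the axis gene htp-3 by 0.66 (adjusted p = 0.045). Of 47 regulators of oocyte and maternal RNA 12 rose, 25.5% against 3.36% of all genes, and 42 of the 47 differences were positive. puf-3, a Pumilio-family repressor of maternal RNA, was at 11.48 and 11.86 in xpa-1 and at 10.48 and 10.65 in N2 (1.1, SE 0.23, adjusted p = 0.02). The P granule genes deps-1 and pgl-3 each rose by 1.08, and rme-2, the yolk receptor of the oocyte, was at 13.29 and 13.18 against 12.3 and 12.25 (0.96, SE 0.20, adjusted p = 0.022). In these genes both xpa-1 arrays were above both N2 arrays, as in every probe set called as a rise. Of 18 eggshell genes 2 rose (11.1%), gna-2 by 0.80 and cpg-4 by 0.66, while a second probe set of cpg-4 differed by 0.69 (adjusted p = 0.073). Every one of these 8 calls ended without either N2 array (highest adjusted p 0.30), and over the tests without 1 array 0 to 32 of the 47 oocyte genes rose, and 2 with the batch as a block.

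Markers of the cell types in mixed-stage worms moved alongside. The mean log2 level of the 47 oocyte genes was 11.09 and 11.08 in xpa-1 and 10.46 and 10.51 in N2, that of the 18 eggshell genes 11.84 and 11.91 against 11.58 and 11.58, and none of these genes had a value at 0. All 5 yolk protein genes had means above N2 in the deposited scale, from 0.06 for vit-2 to 1.87 for vit-1, although only vit-6, at 14.28 and 14.42 against 13.89 and 13.92 (0.44, SE 0.09, adjusted p = 0.018), passed, and with quantile normalization vit-5 turned to -0.12 and with the batch as a block vit-2 to -0.07. vit-4 and vit-5 differed by 0.36 and 0.20 (adjusted p = 0.70 and 0.85). Their part in the gene groups above was not tested.

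Sperm markers lay far apart in the xpa-1 arrays. The 23 major sperm protein genes had a mean level of 10.27 in xpa-1 replicate 1 and 11.73 in replicate 2, with N2 between at 11.4 and 11.18. Their median difference was -1.07 in replicate 1 and 0.45 in replicate 2, and in limma none of the 23 passed and none had an unadjusted p under 0.05, while all 23 mean differences were negative. Of 57 other sperm genes 41 differences were negative and 3 fell (5.26%), led by swm-1, a seminal trypsin inhibitor gene, at 10 and 10.14 against 11.42 and 11.41 (-1.34, SE 0.19, adjusted p = 0.0054), with spe-19 and spe-57 at -0.68 and -0.67. Male genes gave 3 falls of 21, 14.3% against 7.52% of all genes. They were cwp-2 (-1.12) and mab-3 (-0.58) beside swm-1, and the mean level of the male list was 7.03 and 6.79 in xpa-1 against 7.26 and 7.18. swm-1, spe-19, spe-57 and mab-3 ended without either N2 array and cwp-2 without N2 replicate 1 (highest adjusted p 0.25).

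Of 39 muscle genes 5 rose, 12.8% against 3.36% of all genes, and 2 with the batch as a block. The giant kinase gene unc-22, twitchin, was at 9.05 and 8.78 in xpa-1 and at 6.81 and 6.48 in N2 (2.27, SE 0.36, adjusted p = 0.0078), tni-1, a troponin I gene, was at 10.04 and 10.05 against 8.49 and 8.5 (1.55, SE 0.22, adjusted p = 0.0054), and the myosin gene myo-3 and the perlecan gene unc-52 rose by 1.46 and 1.32. The mean level of the 39 genes was 10.04 and 10.3 against 9.78 and 9.83, with a median difference of 0.01 in xpa-1 replicate 1 and 0.37 in replicate 2. The 4 calls ended without either N2 array (highest adjusted p 0.25). The other probe sets of unc-52 differed by 1.01 and 0.28 and did not pass.

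**Figure D3:**
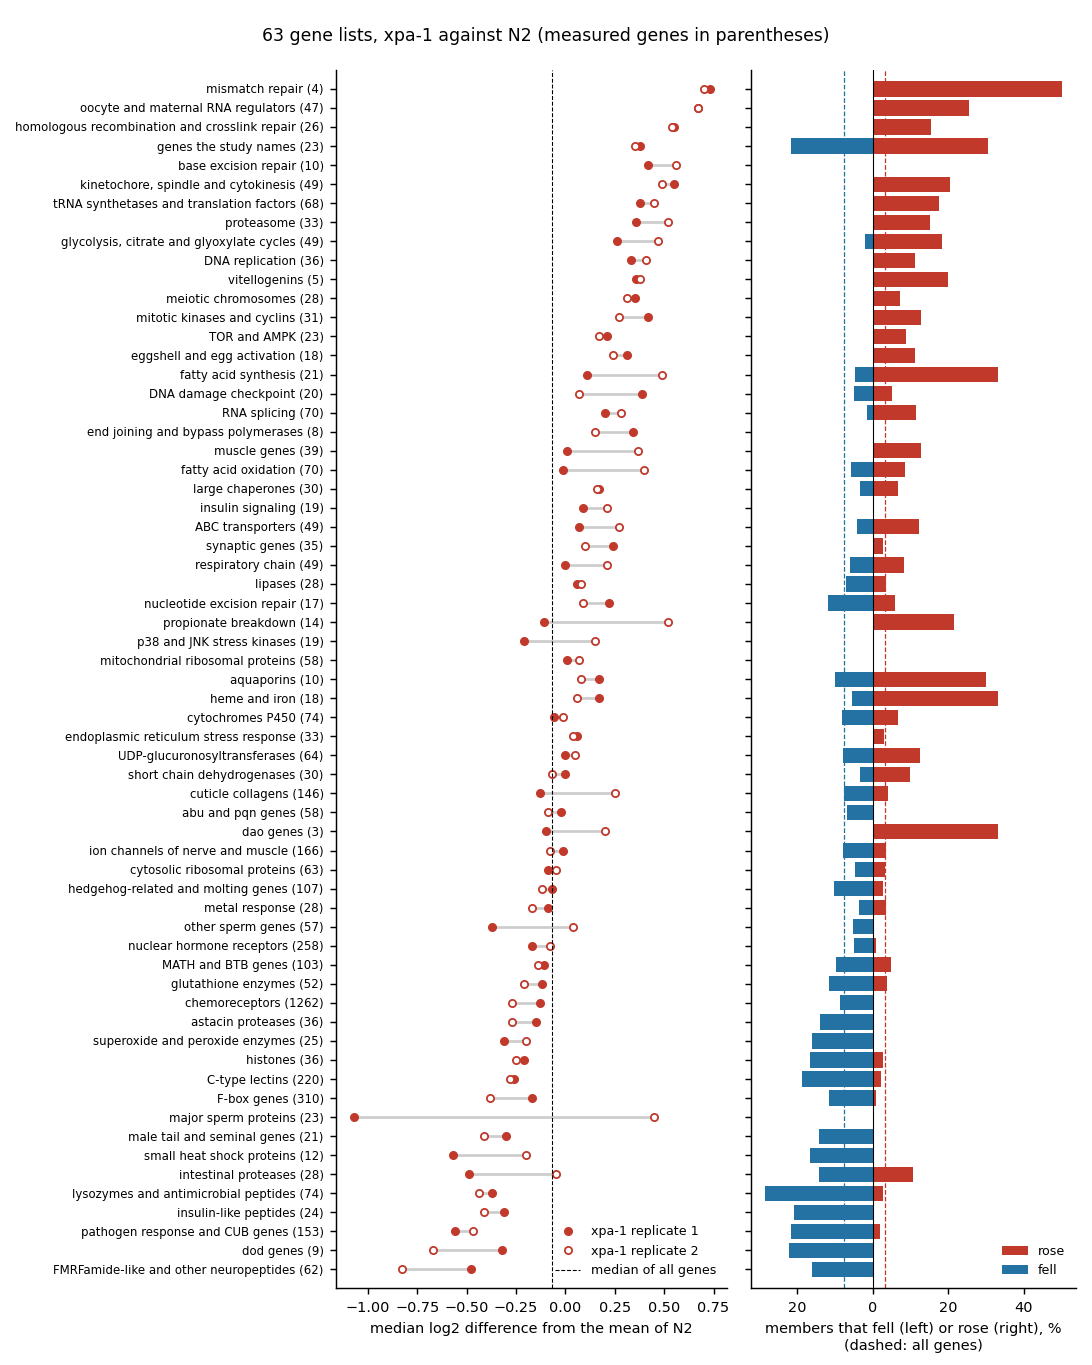
Left, the median log2 difference from the mean of N2 over the members of each of 63 gene lists, for xpa-1 replicate 1 (filled) and 2 (open), and right, the percent of members that fell and rose, with dashed lines at the values for all genes (-0.07 left, 7.52 and 3.36 right). The arrays lie close together for most lists and far apart for the major sperm proteins (-1.07 and 0.45).

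Of 146 cuticle collagens 6 rose (4.11%) and 11 fell (7.53%, against 7.52% of all genes), with a median of -0.01 that turned to 0.10 with quantile normalization and 0.08 with centring, and of -0.13 and 0.25 in the xpa-1 arrays. col-37 was at 5.84 and 6.26 in xpa-1 and at 9.73 and 9.8 in N2 (-3.72, SE 0.63, adjusted p = 0.01) and col-2, of the dauer cuticle, was at 8.11 and 8.35 against 11.66 and 11.63 (-3.42, SE 0.52, adjusted p = 0.0066), with col-84 and col-123 at -2.78 and -1.84. Of 107 hedgehog-related and molting genes 3 rose (2.8%) and 11 fell (10.3%), and 2 fell with the batch as a block. The ground-like genes grl-19, grl-20, grl-23 and grl-3 differed by -3.89, -3.57, -3.54 and -3.5, although a second probe set of grl-20 differed by -1.16 (adjusted p = 0.099), and grl-23, at 7.52 and 7.63 against 11.02 and 11.22, held whichever array was left out. The other 7 calls ended without either N2 array, with adjusted p up to 0.20. The mean level of the 146 collagens was 8.47 and 8.81 in xpa-1 against 8.68 and 8.7 in N2, and of the 107 molting genes 7.54 and 7.49 against 7.77 and 7.81. The nth-1 means of col-2 (11.16), col-37 (9.05) and grl-20 (9.12) lay nearer N2 than xpa-1, but xpa-1 and nth-1 were not shown to differ in them by the test of that difference.

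**Figure D4:**
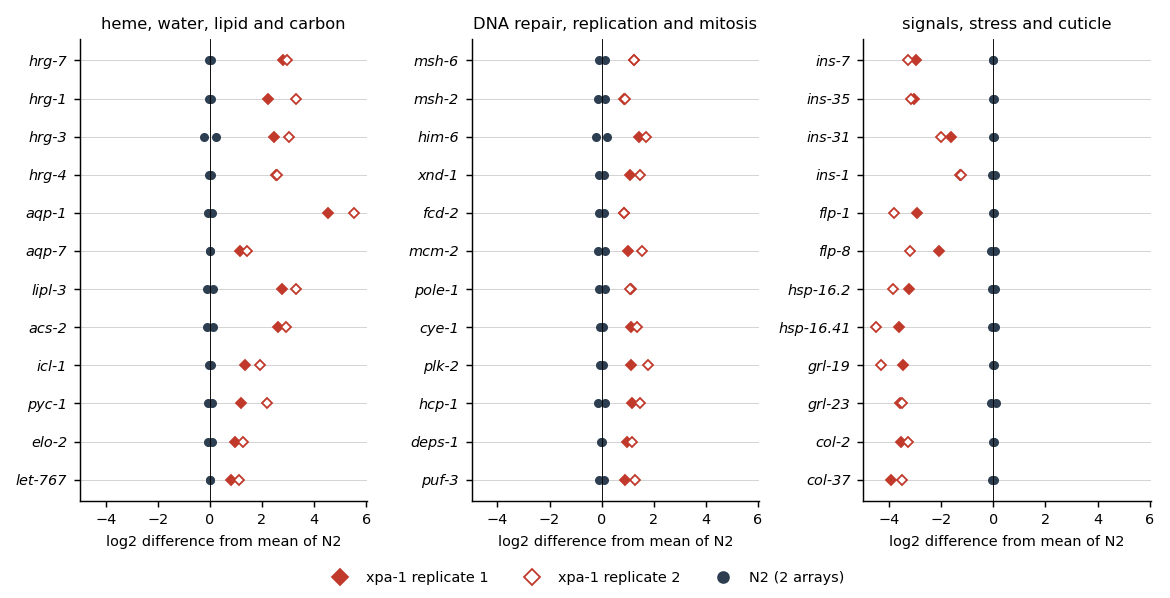
Log2 difference of each array from the mean of the 2 N2 arrays (x axis) for 12 genes in each of 3 groups, with xpa-1 replicate 1 filled, replicate 2 open and the N2 arrays as circles. The genes were picked among calls, so their xpa-1 and N2 arrays do not overlap. The left and middle panels hold rises, with hrg-7 at 2.88 and msh-6 at 1.23 on average. The right panel holds falls, with hsp-16.41 at -4.06.

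Of 33 proteasome subunit genes, which form the protease that degrades tagged proteins, 5 rose, 15.2% against 3.36% of all genes, and none with the batch as a block, led by rpn-1, at 11.37 and 11.99 in xpa-1 and at 10 and 10.09 in N2 (1.64, SE 0.41, adjusted p = 0.04), with rpt-5, rpt-2 and rpn-3 at 0.80, 0.66 and 0.62. Of 310 F-box genes, the adaptors that choose substrates, 3 rose and 36 fell, 11.6% against 7.52% of all genes, with 2 to 79 falls over the tests without 1 array and 7 with the batch as a block. fbxa-163 was at 7.73 and 6.8 against 10.32 and 10.52 (-3.16, SE 0.63, adjusted p = 0.018), and fbxa-165, fbxa-135 and fbxa-12 differed by -2.77, -2.22 and -2.08. Of 103 MATH and BTB genes 5 rose (4.85%) and 10 fell (9.71%): math-10 was at 6.04 and 6.2 against 4.06 and 4.0 (2.09, SE 0.16, adjusted p = 0.00035) and bath-11 rose by 1.56, whereas btb-17 and math-38 differed by -1.62 and -1.56. math-10 and btb-17 held whichever array was left out, and the other 10 calls ended without either N2 array (highest adjusted p 0.29).

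Genes of translation and splicing rose in larger shares than genes in all, and ribosomal protein genes did in shares near or under those of all genes. Of 68 tRNA synthetase and translation factor genes 12 rose, 17.6% against 3.36%, with a median of 0.42. The rises were 1 to 30 over the tests without 1 array and 2 with the batch as a block. The initiation factor gene eif-3.I was at 9.0 and 9.23 in xpa-1 and at 7.23 and 7.11 in N2 (1.94, SE 0.24, adjusted p = 0.0033) and held whichever array was left out. ifg-1, the eIF4G scaffold, was at 9.75 and 9.74 against 8.29 and 8.17 (1.52, SE 0.40, adjusted p = 0.046), and eif-2Bepsilon and eif-6 rose by 1.18 and 0.98. Of 70 splicing genes 8 rose (11.4%, 0 to 20 without 1 array and 1 with the batch as a block) and 1 fell: the helicase-related gene mog-4 by 1.58, prp-8, the core of the spliceosome, by 1.36, and mog-1 and rsp-6 by 0.94 each. Of 63 cytosolic ribosomal protein genes 2 rose (3.17%) and 3 fell (4.76%, against 7.52% of all genes). Among them rpl-29, rpl-39 and rps-28 were at -0.70, -0.32 and -0.53 and rpl-4 at 0.42. None of 58 mitochondrial ribosomal genes passed in limma, with 3 higher and 2 lower at an unadjusted p under 0.05. Apart from eif-3.I the named calls ended without either N2 array, with adjusted p up to 0.25.

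Of 36 histone genes 1 rose and 6 fell, 16.7% against 7.52% of all genes, with 0 to 12 falls over the tests without 1 array, 11 with quantile normalization and none with the batch as a block: the core histone genes his-38, his-64, his-31 and his-35 differed by -1.12, -1.11, -1.05 and -0.87, each ending without either N2 array (highest adjusted p 0.23), and histone genes are so alike that a probe set may read several. The linker histone gene hil-1 was at 8.27 and 8.66 in xpa-1 and at 9.48 and 9.35 in N2 (-0.95, adjusted p = 0.062). Of 258 nuclear hormone receptor genes 2 rose (nhr-181 by 1.16 and nhr-208 by 1.05) and 13 fell, among them nhr-239 (-1.04) and nhr-166 (-0.96), which is 5.04% falling against 7.52% of all genes. nhr-181 and nhr-208 ended without either N2 array, nhr-239 without N2 replicate 2 or xpa-1 replicate 2, and nhr-166 without N2 replicate 1 or xpa-1 replicate 2 (highest adjusted p 0.17). Of the 23 measured genes that the study itself names for xpa-1, a list chosen on these arrays and so no independent evidence, 7 rose (aqp-1, ani-2, dpl-1, gst-4, him-6, msh-2 and msh-6) and 5 fell (ftn-1, ins-1, ins-7, lys-7 and mtl-1). These are 30.4 and 21.7%, against 3.36 and 7.52% of all genes, as a list chosen for its changes would give. C16C8.14, not given above, was at -0.57 (adjusted p = 0.13).

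The direction of change followed the span of a gene on the chromosome. The genes were put in 5 bins of equal size by their span in the RefSeq annotation (WBcel235). In bin 1, with the shortest spans, 1.05% rose and 12.7% fell, and in bins 2, 3 and 4, 1.96, 3.11 and 5.27% rose and 9.19, 7.56 and 5.15% fell. In bin 5, with the longest spans, 5.39% rose and 2.9% fell. The median difference went from -0.23 in bin 1 to 0.13 in bin 5, and it did so in both xpa-1 arrays, from -0.21 to 0.14 in replicate 1 and from -0.26 to 0.10 in replicate 2. N2 replicate 1 minus replicate 2 went from 0.04 to -0.05, nth-1 against N2 from -0.15 to -0.02 and the double mutant against N2 from 0.03 to 0.10. Among genes of the lowest level the median was -0.14 for the shortest and -0.04 for the longest spans, and in level bin 4 it was -0.31 and 0.32. Centring shifted the ends to -0.14 and 0.22. The part of this trend, and of the RNA length that the control probes measure, in the list counts was not tested.

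**Figure D5:**
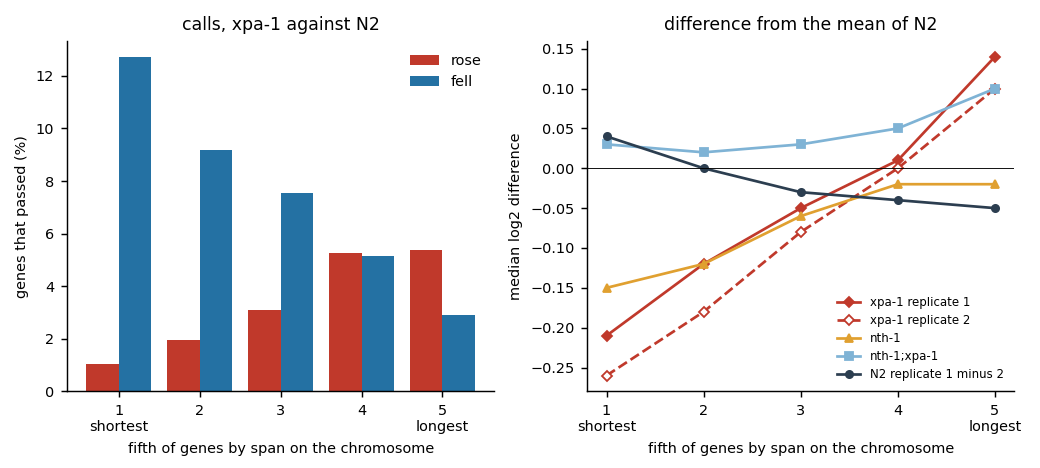
Left, the percent of genes that rose and fell in xpa-1 by bin of chromosomal span, and right, the median log2 difference of each strain or xpa-1 array from the mean of N2, with N2 replicate 1 minus 2. The share that rose grows from 1.05 to 5.39% and the share that fell shrinks from 12.7 to 2.9%, and the medians of both xpa-1 arrays climb.

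Across chromosomes the share that fell was lowest on I (5.43% of 2469 genes) and highest on V (8.76% of 4317). The share that rose was highest on I (4.5%) and lowest on X (2.43%).

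Against the other single mutant few probe sets passed. In the test of xpa-1 against nth-1, 2 probe sets were higher (0.00887%) and 4 lower (0.0177%) in xpa-1, while 1276 and 718 were at an unadjusted p under 0.05. The mks-6 transcript (4.28, adjusted p = 0.00018) and the xpa-1 transcript (-4.39, adjusted p = 0.0009) passed whichever array was left out. mnr-1, menorin, a skin factor that shapes the dendrites of sensory neurons, was at 7.36 and 7.55 in xpa-1 and at 9.26 and 9.45 in N2 (-1.9, SE 0.19, adjusted p = 0.0014), with means of 9.33 in nth-1 and 9.2 in the double mutant. Both xpa-1 arrays thus lay under every other array, and the call against N2 held whichever array was left out, whereas the call against nth-1 (-1.88, adjusted p = 0.015) passed in 1 of the 9 tests without an array. ZK616.8 was at 3.58 and 4.12 in xpa-1, 3.36 and 3.18 in N2 and 5.79 to 6.1 in nth-1 (-2.13 against nth-1, adjusted p = 0.016), so here nth-1 stood apart from N2 and xpa-1 did not pass against N2 (adjusted p = 0.14). The other 2 probe sets have no single gene name. Few calls do not by themselves show that the strains are alike. Replicate 3 of nth-1 correlated at 0.95 and 0.952 with the other nth-1 arrays, and these at 0.991 with each other. Without nth-1 replicate 3 the comparison with nth-1 gave 1173 probe sets, and without any other array 2 or 3.

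Against the double mutant the difference was wide. xpa-1 was higher than nth-1;xpa-1 in 3489 probe sets (15.5%) and lower in 4365 (19.4%). Among the genes lowest in xpa-1 against it were cpr-2, C18H9.5, C03G6.17 and pals-38: C03G6.17 was at 7.75 and 7.55 in xpa-1, 9.9 and 9.83 in N2 and 12.16 on average in the double mutant. C18H9.5 was at 7.72 and 7.48, 9.37 and 9.44, and 12.2, and did not pass against N2 (-1.8, adjusted p = 0.12). Among those highest were T22F3.11, C23G10.11, aqp-1 and Y39B6A.1, the last at 11.59 and 12.17 in xpa-1, 9.98 and 9.93 in N2 and 7.34 in the double mutant. Y39B6A.1 thus rose in xpa-1 against N2 (1.92, adjusted p = 0.0028) and lay under N2 in the double mutant. By the same test 24 of 26 homologous recombination genes, 39 of 47 oocyte genes and all 4 mismatch repair genes were higher in xpa-1 than in nth-1;xpa-1, and 44 of 62 neuropeptide genes were lower. The change from N2 to xpa-1 differed from the change from nth-1 to nth-1;xpa-1 upward in 16.4% and downward in 23% of all probe sets.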

How the data were processed

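RNA of 9 worm cultures was measured on 1-colour Affymetrix arrays. The authors deposited log2 values, made in dChip by invariant-set normalization and a perfect-match model, whose version is not given in the sources used here. The table held 22625 probe sets, of which 77 controls were left out of the tests, and 14 values at 0, which were kept. Of the 22548 tested, 20766 had 1 gene symbol, 887 several and 895 none in the platform annotation, and 20701 gene IDs were found in the RefSeq table (WBcel235). Lists were counted over 17118 genes by the brightest probe set of each.

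Groups were taken from the labels. limma 3.58.1 (R 4.3.3; lmFit, eBayes with a variance trend) was fitted on all 9 arrays, with 5 residual degrees of freedom and Benjamini-Hochberg adjustment over 22548 probe sets at 0.05. Tables and plots were made with Python 3.11.15, pandas 2.3.3 and matplotlib 3.10.9. The number of arrays limits the precision: an exact permutation of 2 against 2 arrays cannot go below a two-sided p of 0.33. On simulated data of this size the fit recovered 21 of 100 changes of 1 log2 unit and 76 of 100 changes of 2. It gave 4 false calls over 22548 probe sets. The simulated noise was independent, with no batch and the same spread in every strain. The real gaps between arrays had an SD of 0.44 in xpa-1 and 0.23 in N2. The simulation thus does not give the rate of false or missed calls in these arrays.

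Genes named were those the study names, the 15 largest rises and the 15 largest falls among single-gene probe sets that passed with no overlap of arrays, up to 4 of the largest passing members of each list and every member of lists of at most 8 genes, and up to 4 genes in each direction against each other mutant. The members and lists were chosen with earlier results of these data known. The alternatives were quantile normalization, median centring, adding 32 before the logarithm, no variance trend, probe sets above the 40th percentile, only the strains compared, the replicate number as a block, the BioC batch as a block, each array left out in turn, the probe set with the largest difference for lists, and folds of geometric means.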

Additional observations from a re-analysis of the deposited data

Results flagged for a closer look

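The change on loss of xpa-1 differed between the N2 background and the nth-1 background. In limma 3695 probe sets (16.4% of all tested) were higher and 5193 (23%) lower in the first change than in the second, and 438 and 991 with the batch as a block. Both xpa-1 replicate 2 and the 3 nth-1 arrays lie in the batch with low BioC signal and the other arrays in the batch with high signal, so the batch is largely tied to this comparison. Only xpa-1 has an array in each batch, so the block takes the batch effect from that pair alone. It cannot separate the batch from the difference between backgrounds.

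Of the 15 genes that rose most in xpa-1 against N2, 14 fell from nth-1 to nth-1;xpa-1. These genes, and those that fell most, were chosen by their difference of xpa-1 from N2. That difference is part of the one between the changes, so the sizes and calls here follow in part from the choice. The difference between the changes was 9.91 for T22F3.11, 9.31 for aqp-1, 9.38 for C23G10.11, 7.31 for R193.2, 6.2 for best-1, 7.47 for cpr-8, 6.26 for clec-190 and 6.86 for lipl-3. It was 4.24 for scav-5, 7.25 for folt-2, 6.38 for cest-29, 6.64 for ugt-17, 7.12 for hrg-7 and 4.65 for C17F4.7. The batch as a block rests on the xpa-1 pair, so it cannot check these 14 differences against the batch. mks-6, beside the deletion, rose in both backgrounds, by 4.21 and 3.27, with a difference of 0.94 (adjusted p = 0.035, limma). It did not pass with the batch as a block (adjusted p = 0.086), which cannot check this difference either.

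Of the 15 genes that fell most, those that rose from nth-1 to nth-1;xpa-1 by more than 1 log2 unit were clec-52, cpr-2, icmt-1, pals-38 and ZK355.3, with differences of -9.9, -9.96, -6.62, -6.98 and -5.89. The other calls were C35B1.3 at -5.46, bcf-1 at -3.45, F59B2.12 at -4.35, ZK1290.11 at -4.81, clec-61 at -4.38, K12H6.4 at -4.23, clec-137 at -4.57 and srlf-18 at -4.42. From nth-1 to nth-1;xpa-1, bcf-1 changed by -1.05 and the rest of these by -0.07 to 0.44. Their differences thus mostly repeat the falls from N2 by which they were chosen. In limma with the batch as a block ZK355.3 (adjusted p = 0.089) and pals-38 (adjusted p = 0.097) did not pass. That fit rests on the xpa-1 pair and cannot check the falls against the batch either. The difference of C13A2.4 was -1.88 (adjusted p = 0.18) and that of the xpa-1 transcript 0.16 (adjusted p = 0.78), and neither passed.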

How the results depend on the processing

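The xpa-1 transcript kept its call, and the counts of probe sets past 1.8-fold stayed within 1.5 times, under every alternative run. The other counts moved mainly with the arrays in the fit. Leaving out an nth-1 array cannot change a difference of xpa-1 from N2, only the pooled spread it is tested against. Without nth-1 replicate 3, C03G6.17 stayed at -2.22, while its adjusted p in limma went from 0.04 to 1.8e-05. Leaving out an N2 array moved aco-1 from 1.27 to 1.21 or 1.34. Other causes were not tested. Over all probe sets nth-1 replicate 3 correlated at 0.95 and 0.952 with the other nth-1 arrays, which correlated at 0.991 with each other. Of 878 probe sets that rose and 1499 that fell, the counts were 1770 and 2325 with only the strains compared and 227 and 530 with the batch as a block, and 951 fell above the 40th percentile. Leaving out 1 array gave 72 (without N2 replicate 1) to 2878 rises and 173 to 3565 falls (without nth-1 replicate 3). Rises were 36.9% of the calls, 44.1% with quantile normalization, 45.1% above the 40th percentile and 52.9% with median centring, where the median over all probe sets was 0.055 instead of -0.035. Against nth-1 the 6 probe sets became 3 above the 40th percentile, 1 with only the strains compared, 2 with the batch as a block and 2 to 1173 without 1 array. Against nth-1;xpa-1 the 7854 became 3787 to 11310 without 1 array. The 8888 probe sets in which loss of xpa-1 differed between N2 and nth-1 became 1429 with the batch as a block and 5858 to 12021 without 1 array.

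Same-numbered xpa-1 and N2 arrays deviated together only weakly (r = 0.104 over probe sets), and nothing in the labels pairs them, so they share only a number. With the replicate number as a block 1733 probe sets rose and 2165 fell, 2 differed from nth-1, 7361 from nth-1;xpa-1, and 11349 in the difference between backgrounds.

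Of 240 named genes 214 passed. Among these, 54 passed whichever array was left out and 90 with the batch as a block, while 158 and 153 lost the call without N2 replicate 1 or 2 and 84 and 126 without xpa-1 replicate 1 or 2. Direction turned only for genes near 0, each with an adjusted p of 0.78 or more there. With quantile normalization dao-4 was at 0.07, polk-1 at -0.05, polq-1 at -0.07, vit-4 at 0 and vit-5 at -0.12, with median centring dao-3 was at 0.08 and dao-4 at 0.07, and with the batch as a block vit-2 was at -0.07. Without 1 array dao-3 ranged from -0.22 to 0.2, dao-4 from -0.12 to 0.08, polq-1 from -0.1 to 0.16 and vit-2 from -0.07 to 0.2. The 2 arrays of a strain limit what small changes the test can find.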
